A study of Mus musculus with 16 samples.

Results

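The junctions described here are the 12847 translocation junctions that the deposited lists leave without a gene label on the 17 mouse autosomes other than chromosomes 12 and 15. They were chosen by position and label alone: a row entered if its gene column read NA or was empty, and all 12847 read NA. Together with 14924 junctions that carry a gene label, they make up the 27771 junctions on those autosomes, of 141168 in all 16 libraries. The junctions on chromosome 15, which holds the induced break, and on chromosome 12, which holds Igh, were not used, nor were those on the sex chromosomes.

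Each library lists the places to which 1 induced DNA break became joined. In high-throughput genome-wide translocation sequencing, the yeast meganuclease I-SceI cuts a site placed in the genome, and primers beside that break amplify whatever it was joined to. The first base of the joined partner (the prey) marks the join, which lies at or near the place where the partner DNA was broken. Breaks that many cells share therefore appear as sites hit in many libraries, while scattered breaks appear as single junctions. In activated B cells, the deaminase AID opens breaks in the switch regions of Igh and at off-target genes, and the kinase ATM senses double-strand breaks and helps to hold broken ends until they are joined. I-SceI recognises a long sequence but tolerates some changes in it, so a genome can hold sites that resemble its own.

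All libraries were made from splenic IgM+ B cells of 129sv mice of 6 to 8 weeks, in which 25 copies of the I-SceI site stood in the first intron of 1 Myc allele, and a retrovirus that expresses I-SceI was used to cut them. The groups were ATM-/- cells (3 libraries), WT cells given the ATM inhibitor KU55933 at 10 µM from the time of infection (3) and untreated WT cells (4), all grown with IL4 (20 ng/mL) and anti-CD40 (1 µg/mL), with virus added at 24 hours and harvest on day 4. The remaining groups were cells labelled ATM-/- (3) and WT (3) grown with an antibody to RP105, a B cell surface protein (2 µg/mL), with virus added at 48 hours and harvest on day 5. The labels do not say whether replicate libraries came from separate mice, so p-values measure the spread between libraries. KU55933 and RP105 libraries were read on a MiSeq and the others on a 454 sequencer, so neither the inhibitor nor the stimulus can be told apart from the sequencer, and the stimulus also differs in harvest day.

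The libraries held 4484 to 18264 junctions, of which 247 to 2226 were on the 17 autosomes without a label. Switch region junctions, the mark of AID activity in activated B cells, made up 4.35% ± 0.776 of junctions outside chromosome 15 in ATM-/- libraries, 7.69% ± 0.948 with KU55933 and 11.96% ± 1.25 in untreated WT, but 0.986% ± 1.09 and 0.787% ± 0.247 in the RP105 libraries labelled ATM-/- and WT (SD over libraries). The first 110 Mb of chromosome 12 held 6.54% ± 1.41 in ATM-/- and 2.48% ± 0.458 in WT libraries under anti-CD40/IL4, and 3.63% ± 0.833 and 8.72% ± 0.541 in the RP105 libraries labelled ATM-/- and WT. The genotype order there is the opposite under the 2 stimuli, so the RP105 libraries are called by their labels throughout. Whether the genotype labels of the RP105 libraries were exchanged was not tested, and an exchange would turn every genotype difference given for them. Some libraries also shared junction bases. The RP105 libraries labelled ATM-/- replicate 3 and WT replicate 3, from the same sequencing run by their read names, had 58 unlabelled junction positions in common. That was 11.6% of the smaller library. KU55933 replicates 1 and 2, also from 1 run, had 51, or 4.19%. The next pair had 13. Results are therefore also given without bases that occur in more than 1 library wherever that ended or added a call.

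The places on which the results below turn are shown as mm9 plus-strand sequence read from the aligned target letters of the deposited records. The first set comes from clusters at chr1:31667623-31667760, chr1:137751636-137751714, chr2:72097763-72097900 and chr6:85346273-85346410. Its capitals mark the 18 bases most like the I-SceI recognition site, compared without gaps. The next is the middle of the largest cluster, between Zcchc7 and Zbtb5, at chr4:44981617-44981816, with the AID hotspot letters AGCT in capitals. The same-base sites, at chr4:44948164-44948223 and chr1:154652043-154652102, show bases hit in many libraries, with the junction base in capitals. The last shows a junction inside a CA repeat, at chr1:156609137-156609196, again with its first prey base in capitals.
chr1 site A: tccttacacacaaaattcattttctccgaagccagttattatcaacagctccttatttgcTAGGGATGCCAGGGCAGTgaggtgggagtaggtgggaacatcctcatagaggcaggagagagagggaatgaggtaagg
chr1 site B: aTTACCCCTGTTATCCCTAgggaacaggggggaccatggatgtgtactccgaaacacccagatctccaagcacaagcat
chr2 site: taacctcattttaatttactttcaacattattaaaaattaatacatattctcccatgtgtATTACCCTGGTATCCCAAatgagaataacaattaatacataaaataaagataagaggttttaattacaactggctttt
chr6 site: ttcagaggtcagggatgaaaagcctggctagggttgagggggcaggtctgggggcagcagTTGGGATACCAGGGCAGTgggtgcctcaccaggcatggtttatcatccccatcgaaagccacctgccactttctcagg
chr4 cluster near Zcchc7: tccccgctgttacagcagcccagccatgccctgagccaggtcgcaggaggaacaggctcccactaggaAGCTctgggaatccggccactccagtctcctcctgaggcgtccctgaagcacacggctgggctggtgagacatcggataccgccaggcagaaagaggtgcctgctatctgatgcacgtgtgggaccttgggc
same-base site 1: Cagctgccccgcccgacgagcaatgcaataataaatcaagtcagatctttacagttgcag
same-base site 3: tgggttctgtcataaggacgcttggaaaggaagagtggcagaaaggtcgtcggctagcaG
CA repeat start: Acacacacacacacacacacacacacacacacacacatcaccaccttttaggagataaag

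Most unlabelled junctions lay alone, and a small part fell in narrow recurrent sites. Runs of at least 3 unlabelled junctions, pooled over libraries and no more than 1 kb apart, numbered 158 and held 1198 junctions, or 9.33%. Their median width was 531 bp. Of these clusters 71 held just 3 junctions, 26 held 10 or more, 45 drew on 5 or more libraries and 7 on a single one. The 10 largest held 435 junctions, 3.39% of all unlabelled ones, and the 10th and 11th in size held 20 and 18. Clusters were found in the junctions they are made of, so their counts are descriptions and carry no test.

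The largest cluster, at chr4:44979435-44984325, lay 37.4 kb beyond the last junction labelled Zcchc7, an RNA-processing zinc finger gene, and 25.9 kb before the first labelled Zbtb5. It held 77 junctions from 11 libraries, 45 on the plus and 32 on the minus strand. KU55933 libraries gave 23, 27 and 7 of them, ATM-/- libraries 1, 4 and 0, untreated WT libraries 4, 4, 2 and 2, RP105 libraries labelled ATM-/- 0, 0 and 2, and those labelled WT 0, 0 and 1. It was thus the largest site with KU55933, at 10.4 per 1000 unlabelled junctions pooled over that group, against 7.10 per 1000 in untreated WT. Replicate 3 of the inhibitor group was far below replicates 1 and 2. The 200 bases printed for it held 16 of its junctions and 1 AGCT, a motif present in 62.6% of RefSeq promoter windows of that length. The 120 bases fullest of junctions in the clusters near Pax5, in Igk and at chr6:18834612-18836291 held 0, 1 and 0 AGCT, and 44.6% of promoter windows of 120 bases held 1 or more.

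The third cluster by size, at chr4:44723592-44727844, began 0.840 kb from the nearest junction labelled Pax5, the transcription factor that fixes B cell identity. Its 64 junctions came from 8 libraries of the anti-CD40/IL4 groups. KU55933 libraries gave 14, 23 and 9, ATM-/- libraries 3, 7 and 3, untreated WT libraries 3, 2, 0 and 0, and the 6 RP105 libraries 0. Per 1000 unlabelled junctions this was 8.40 with KU55933, 5.09 in ATM-/- and 2.96 in untreated WT. Pax5 is a known AID off-target gene. The fifth, at chr6:70673745-70677999 in Igk, the kappa light chain locus, lay 0.0440 kb from the nearest junction labelled Jk4 and held 38 unlabelled and 20 labelled junctions. KU55933 libraries gave 4, 11 and 5 of the unlabelled ones, ATM-/- libraries 4, 1 and 0, untreated WT libraries 3, 3, 6 and 0, and of the RP105 libraries only the one labelled ATM-/- replicate 3 gave any, with 1.

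On chromosome 1, a pair of clusters was hit under every condition and carried nearly all junctions on 1 strand. Site A, at chr1:31667218-31668681, lay 404.3 and 767.7 kb from the nearest labelled junctions, 4931428L18Rik and Khdrbs2. It held 69 junctions from 15 of 16 libraries, 64 on the minus strand. ATM-/- libraries gave 1, 3 and 5, KU55933 libraries 4, 5 and 7, untreated WT libraries 2, 0, 3 and 1, RP105 libraries labelled ATM-/- 4, 5 and 7, and those labelled WT 6, 7 and 9. It was the largest site of both RP105 groups, with 14.9 per 1000 unlabelled junctions in those labelled ATM-/- and 10.7 in those labelled WT, against 3.52 in ATM-/- and 3.55 in WT libraries under anti-CD40/IL4 on the 454 sequencer and 2.92 with KU55933 on the MiSeq.

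Site B, at chr1:137751078-137752446, began 2.89 kb from the nearest junction labelled Tnnt2, the cardiac troponin T gene. Its 42 junctions came from 14 libraries, with 37 on the plus strand. ATM-/- libraries gave 3, 4 and 1, KU55933 libraries 3, 5 and 5, untreated WT libraries 3, 0, 1 and 0, RP105 libraries labelled ATM-/- 1, 3 and 3, and those labelled WT 4, 1 and 5.

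Both held a stretch resembling the I-SceI site, and their junctions piled up at it. At site A, 14 of 18 bases were identical to the recognition site over 31667683 to 31667700 on the plus strand, and 35 of 69 junctions (50.7%) lay within 20 bases of that stretch. The commonest junction base, 31667689, lay inside it and was hit in 7 libraries. Of the 64 minus-strand junctions, 44 lay to the left of the stretch, 20 inside it and 0 to its right. At site B, 15 of 18 bases were identical over 137751637 to 137751654 on the minus strand, and 23 of 42 junctions (54.8%) lay within 20 bases. Its commonest base, 137751636, directly beside the stretch, was hit 6 times. The comparison allowed no gap. With an extra C left out, the letters from 137751636 on match all 18 bases, so that base can also be read as the first of the site. Of the 37 plus-strand junctions at site B 6 lay to the left, all at 137751636, 6 inside and 25 to the right. At each site, then, the commoner strand was the one whose prey leads away from the stretch on the side where most junctions lay.

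**Figure D1:**
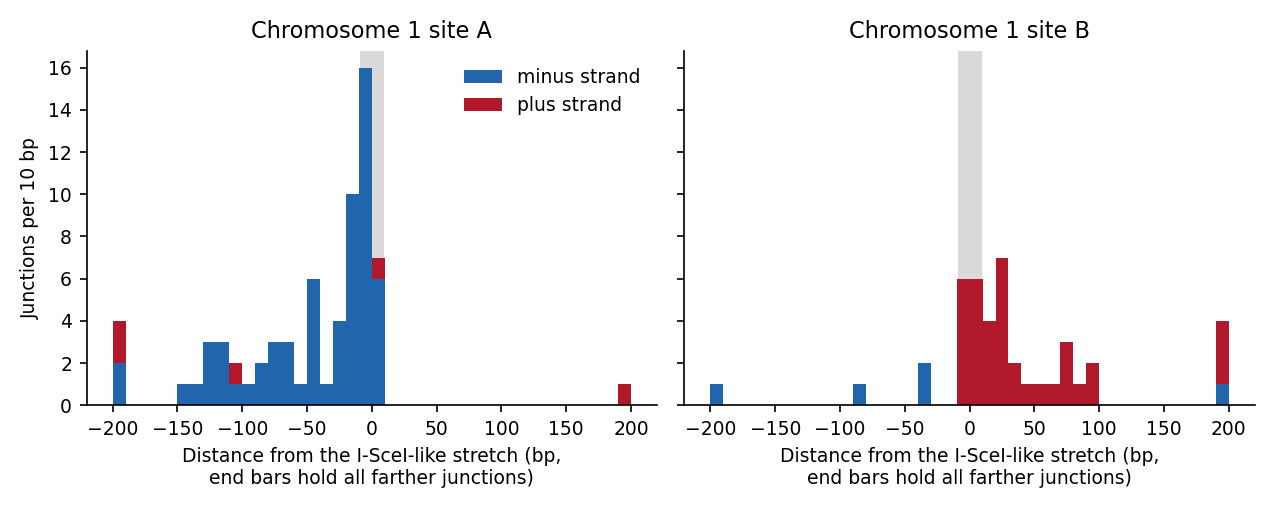
Unlabelled junctions per 10 bp around the I-SceI-like stretch (grey band) of the chromosome 1 sites A (69 junctions) and B (42), by prey strand; the horizontal axis is the distance in bp from the middle of the stretch and the end bars hold all farther junctions. At site A 64 minus-strand junctions end at or left of the stretch, and at site B 25 of 37 plus-strand junctions begin right of it.

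A pair of smaller clusters, picked after their letters were seen, also held such a stretch. A cluster at chr2:72097077-72097879 held 13 junctions, 12 on the minus strand, with 16 of 18 bases identical and 6 junctions within 20 bases of the stretch. One at chr6:85346335-85346398 held 7 junctions, 3 on the plus and 4 on the minus strand, with 14 of 18 bases identical and 6 of the 7 within 20 bases. This cluster is narrow, and the stretch (85346333 to 85346350) with 20 bases on either side covered much of it, so such closeness was nearly given. All 4 of its minus-strand junctions lay inside the stretch, so the uneven strands of sites A and B were not seen there. A further cluster inside Igk, starting at chr6:70670813, also held 14 identical bases, but 0 of its 9 junctions lay within 20 bases. In each cluster only the 300 bases around the median junction were searched. Of all 158 clusters, 5 (3.16%) held a stretch with at least 14 identical bases there. Of 32817 RefSeq promoter windows of 300 bases, 52 did (0.158%), and at 12 or more identical bases the shares were 9.49% and 9.62%. The cluster windows were centred on junctions, and in some of them no read covered part of the letters. The windows compared also differ in base content, so these shares are a description. A likeness of letters is not a measurement of cutting.

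The other large clusters had no stretch with 14 or more identical bases in the 300 bases around their median junction, the only part searched. They were up to 4891 bases wide, and in some of them no read covered part of the letters searched. The one at chr10:104053917-104055295, 1525.8 and 795.2 kb from the labelled junctions of Lrriq1 and Tmtc2, held 36 junctions, 35 of them in 454 libraries. ATM-/- libraries gave 6, 8 and 7 and untreated WT libraries 5, 4, 3 and 2, making it the largest site of both groups, whereas KU55933 libraries gave 1, 0 and 0 and RP105 libraries 0. Presence and sequencer cannot be told apart there. Clusters at chr17:39980195-39983218 (33 junctions, 11 libraries), chr1:24618451-24623023 (29, of which 14 in KU55933 replicate 3), chr6:18834612-18836291 (27, of which 8 in the RP105 library labelled WT replicate 3) and chr1:36351388-36355834 (20, between Neurl3 and Arid5a) completed the 10.

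A few single bases recurred from library to library. Of 12573 unlabelled positions and strands, 186 (1.48%) were hit in at least 2 libraries, and of 14417 labelled ones 318 (2.21%). Same-base site 1, chr4:44948164 on the plus strand, 6.16 kb from the nearest Zcchc7 junction, was hit in 11 libraries of all 5 groups. The bases chr2:150759289, chr1:154652102 (same-base site 3) and chr4:33803617, all on the minus strand, were hit in 10, 9 and 9 libraries of all 5 groups, and none of these 3 had another unlabelled junction within 1 kb. A pair of libraries from 1 run shared a median of 12.3 positions per 1000 of the smaller library (7 pairs), and a pair from different runs 5.81 (113 pairs, highest 32.4).

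The share of junctions without a gene label differed little between libraries and between groups. It was 45.6%, 44.3% and 45.7% in ATM-/- libraries, 41.8%, 46.5% and 48.1% with KU55933 and 47.7%, 47.7%, 45.9% and 42.4% in untreated WT, all under anti-CD40/IL4. Under RP105 it was 46.1%, 46.9% and 47.7% in libraries labelled ATM-/- and 49.0%, 47.6% and 47.9% in those labelled WT. The anti-CD40/IL4 groups overlapped, and the lowest values were those of KU55933 replicate 1 and WT replicate 4. Wilson 95% intervals were as wide as 38.5% to 46.5% for WT replicate 4 and as narrow as 46.6% to 49.5% for KU55933 replicate 3, covering counting error only.

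**Figure D2:**
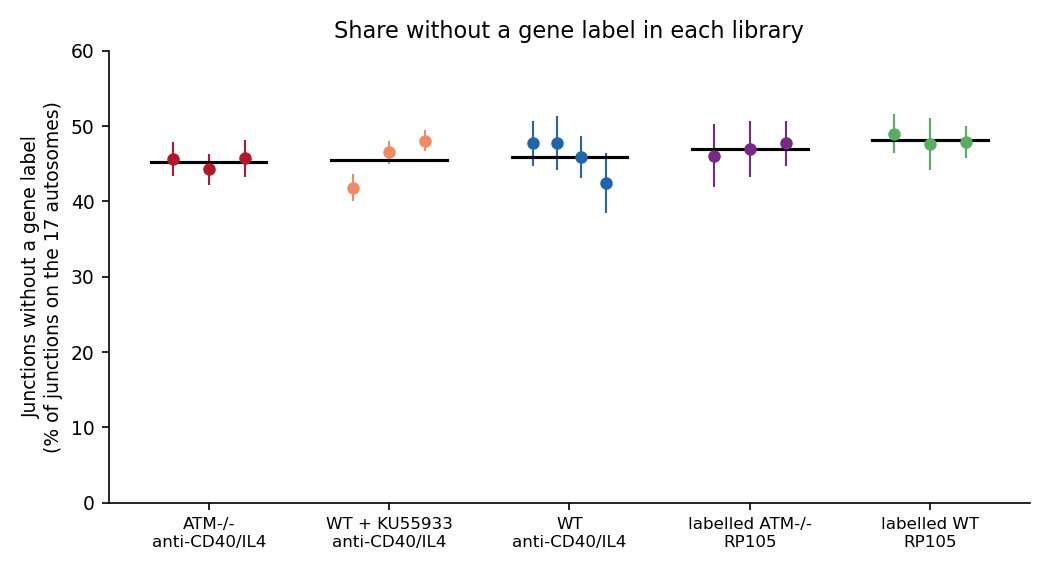
Share of junctions on the 17 autosomes without a gene label (vertical axis, percent) in each of the 16 libraries; bars are Wilson 95% intervals and horizontal lines group means. All libraries lie between 41.8% and 49.0%.

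None of the 7 comparisons of this share passed. The group means were 45.2% ± 0.803 in ATM-/- (n = 3), 45.5% ± 3.27 with KU55933 (n = 3) and 45.9% ± 2.48 in untreated WT (n = 4). ATM-/- minus WT was -0.733 percentage points (exact two-sided permutation p = 0.543, adjusted p = 0.666 over a family of 27 tests), with -1.62 and 3.27 in the 2 runs that held both. KU55933 minus untreated was -0.480 (exact permutation p = 0.771, adjusted 0.864), and ATM-/- minus KU55933 -0.253 (exact permutation p = 1.0). Under RP105 the means were 46.9% ± 0.812 and 48.2% ± 0.731, a difference of -1.28 (exact permutation p = 0.2, adjusted 0.36), with -1.14 and -0.170 in the shared runs. It was 2.59 with all junctions outside chromosome 15 as the base, -3.22 without CA repeat starts and 1.28 with ATM-/- and WT exchanged among the RP105 labels (exact permutation, adjusted p = 0.193, 0.208 and 0.415). RP105 minus anti-CD40/IL4 was 1.70 in cells labelled ATM-/-, where the libraries did not overlap (exact permutation p = 0.1, the smallest that 3 against 3 can give, adjusted 0.225), and 2.24 in WT (exact permutation p = 0.2, adjusted 0.36). The first of these was -0.644 with CA repeat starts removed and 5.56 with all junctions outside chromosome 15 as the base (exact permutation, adjusted p = 0.506 and 0.193). The interaction (how far the genotype difference under RP105 exceeds the one under anti-CD40/IL4) was -0.543 (exact permutation p = 0.771, adjusted 0.864).

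Unlabelled junctions were found on every chromosome, over a narrower range of densities than labelled ones (0.157 to 0.314, against 0.127 to 0.506). Density is given as junctions per Mb between the first and last junction of a chromosome, per 1000 junctions on the 17 autosomes. It was highest on chromosome 11, at 0.314 ± 0.0609 (SD, n = 16), then on chromosome 1, at 0.265 ± 0.0823, and lowest on chromosome 14, at 0.157 ± 0.0307. The neighbours in this order lie within 1 SD of each other. Unlabelled junctions made up 36.9% of the junctions of chromosome 7, 38.4% of chromosome 11 and 39.1% of chromosome 19, but 54.3% of chromosome 13 and 57.6% of chromosome 3. Across the 17 chromosomes, in the same libraries, the unlabelled density followed the labelled one with r = 0.709 (rho = 0.591), a description only. The plus-strand share ran from 42.9% on chromosome 18 (434 unlabelled junctions) to 51.7% on chromosome 8, and departure from an even split was not tested.

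**Figure D3:**
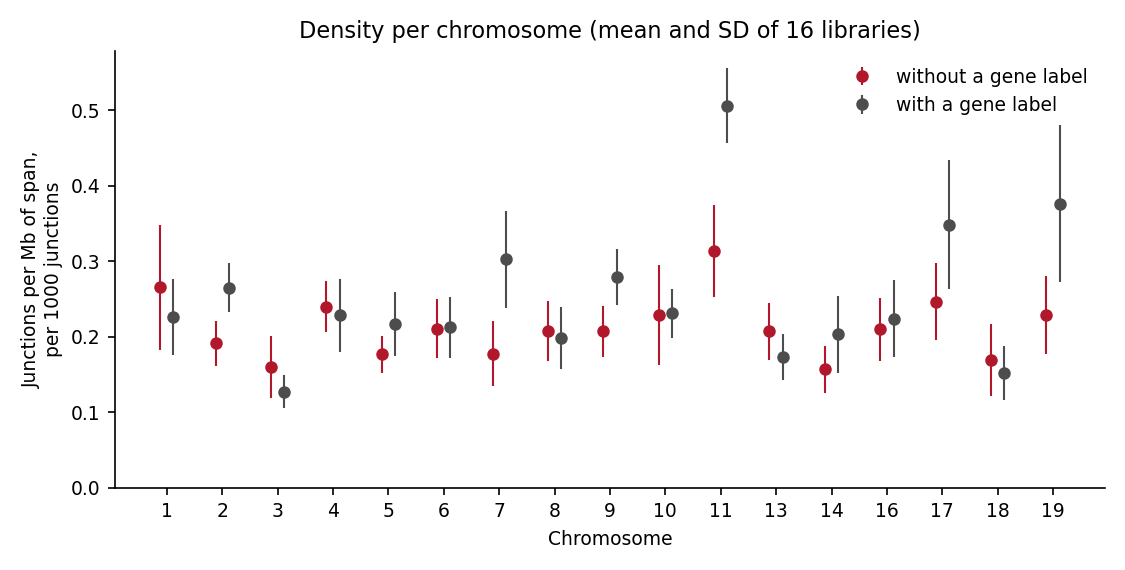
Unlabelled (red) and labelled (grey) junctions per Mb of chromosome span per 1000 junctions on the 17 autosomes; points are means and bars SDs of 16 libraries. Chromosome 11 is highest in both, and chromosomes 7, 11, 17 and 19 have the widest gap in favour of labelled junctions.

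Chromosome 1 had the lowest adjusted p of the unlabelled chromosomes in each of the 4 comparisons, of 7, in which any passed. It did not have the largest fold in each: under RP105, ATM-/- against WT by the labels gave -0.74 on chromosome 19 and 0.60 on chromosome 10 on the log2 scale, neither past the threshold. Per 1000 junctions on the 17 autosomes it held 78.4, 63.1 and 93.7 in RP105 libraries labelled ATM-/- and 58.0, 48.4 and 58.7 in those labelled WT. Under anti-CD40/IL4 it held 35.05, 36.7 and 38.1 in ATM-/- libraries, 39.8, 47.4 and 49.0 with KU55933 and 49.0, 38.9, 43.5 and 46.4 in untreated WT. The groups labelled ATM-/- and WT did not overlap under RP105, also within the shared runs, where 78.4 and 63.1 stood against 48.4, and 93.7 against 58.7. Labelled junctions of chromosome 1 had the same order under RP105, so it is not particular to unlabelled ones. Their density was 0.320 ± 0.00438 in libraries labelled ATM-/- and 0.218 ± 0.0219 in those labelled WT, against unlabelled densities of 0.404 ± 0.0788 and 0.284 ± 0.0297. Under anti-CD40/IL4 the labelled density was 0.184 ± 0.0262 in ATM-/-, 0.214 ± 0.00517 with KU55933 and 0.203 ± 0.0214 in untreated WT.

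In edgeR's quasi-likelihood test over 34 features (unlabelled and labelled junctions of each chromosome), chromosome 1 rose in RP105 libraries labelled ATM-/- over those labelled WT, by 0.51 on the log2 scale (SE 0.13, adjusted p = 0.0106), the 1 call among 17 unlabelled features where 8.82% of all features were called. It rose under RP105 over anti-CD40/IL4 in cells labelled ATM-/-, by 1.14 (SE 0.13, adjusted p = 2.29e-11), and chromosome 7 fell there, by -0.74 (SE 0.24, adjusted p = 0.0259), 2 unlabelled calls where 8.82% of features were called. Chromosome 7 held 18.5 ± 4.75 per 1000 in the RP105 libraries labelled ATM-/- and 31.96 ± 2.86 in the ATM-/- anti-CD40/IL4 ones (n = 3 each). Chromosome 1 was also lower in ATM-/- than in KU55933 libraries, by -0.33 (SE 0.11, edgeR adjusted p = 0.0425), 1 call with 8.82% of features called. The interaction on chromosome 1 was 0.80 (SE 0.19, edgeR adjusted p = 0.00396), again 1 unlabelled call with 8.82% of features called. With ATM-/- and WT exchanged among the RP105 labels, chromosome 1 had -0.51 for ATM-/- against WT under RP105 (edgeR adjusted p = 0.0106), 0.62 for RP105 against anti-CD40/IL4 in ATM-/- (adjusted p = 0.000138) and -0.23 for the interaction (adjusted p = 0.763), and chromosome 7 had -0.26 (adjusted p = 0.303).

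No unlabelled chromosome passed in ATM-/- against WT or KU55933 against untreated under anti-CD40/IL4, where edgeR called 0.0% of features and 2 unlabelled ones had an unadjusted p under 0.05 in each. None passed in RP105 against anti-CD40/IL4 in WT, where 2.94% were called and 4 had such a p, and DESeq2 called 0 in each of these comparisons. DESeq2 kept chromosome 1 in RP105 against anti-CD40/IL4 in ATM-/- (adjusted p = 4.75e-06) but gave 0.0582 for ATM-/- against WT under RP105, 0.419 for ATM-/- against KU55933 and 0.0606 for the interaction. Without the RP105 library labelled ATM-/- replicate 3, chromosome 1 under RP105 had 0.31 (adjusted p = 0.485) and the interaction 0.60 (adjusted p = 0.113), and with any other single library left out both passed. The call against KU55933 passed only without KU55933 replicate 1 (-0.40), and that of chromosome 7 only without ATM-/- anti-CD40/IL4 replicate 3 (-0.79), while the others ranged over -0.35 to -0.28 and -0.85 to -0.60.

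None of these chromosome calls passed in edgeR once junctions that started in a CA repeat were removed. On chromosome 7, just 17 of 776 unlabelled junctions (2.19%) started that way. Such a start, at least 5 CA units within the first 20 prey bases on either strand, was found at 772 unlabelled junctions, 388 on the plus and 384 on the minus strand and at 756 distinct positions. Read away from the junction, 724 ran as CA and 48 as TG. They made up 24.0% of unlabelled junctions in RP105 libraries labelled ATM-/-, 11% in those labelled WT and 4.58% with KU55933, all MiSeq groups, and 0.783% in ATM-/- and 1.07% in untreated WT libraries, both read on the 454. Of the 772, 37.3% lay on chromosome 1, against 8.75% of all other unlabelled junctions, 15.5% on chromosome 10 (against 5.29%) and 11.9% on chromosome 11 (against 7.76%). Chromosomes 1, 10, 11, 13 and 14 together held 77.0% of the CA starts in MiSeq libraries, against 31.3% of the other junctions there.

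**Figure D4:**
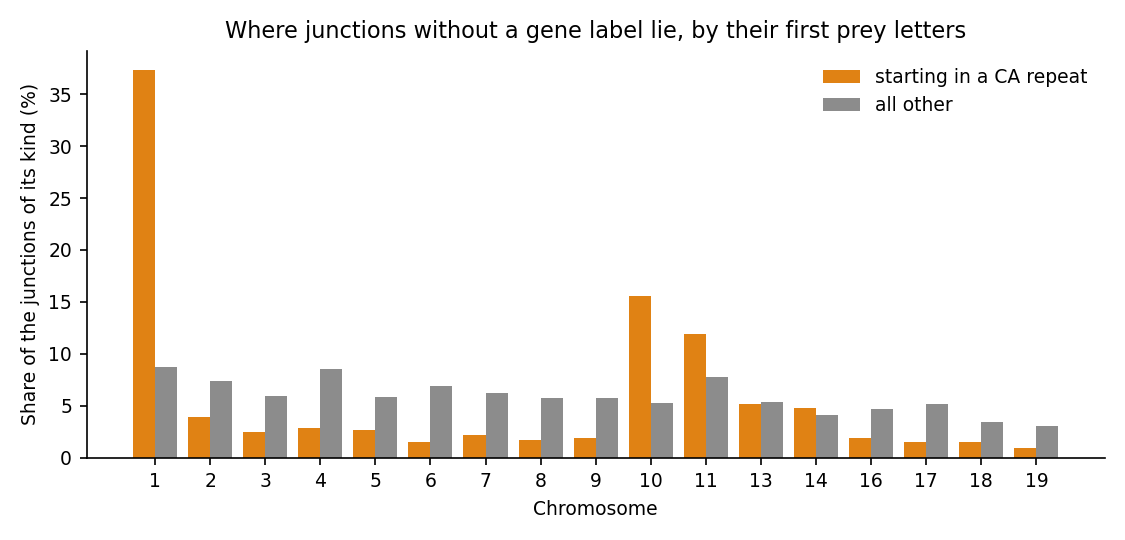
Where unlabelled junctions lie: the share (percent, vertical axis) of the 772 that start in a CA repeat and of all others on each autosome. Chromosomes 1, 10 and 11 hold 37.3%, 15.5% and 11.9% of the CA starts, and no other chromosome more than 5.18%.

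Without CA starts the chromosome 1 calls ended. Chromosome 1 then held 47.1 ± 5.28 per 1000 in RP105 libraries labelled ATM-/- and 39.1 ± 7.78 in those labelled WT, and, under anti-CD40/IL4, 36.5 ± 1.09 in ATM-/-, 39.03 ± 2.35 with KU55933 and 44.8 ± 4.32 in untreated WT. The edgeR log2 fold changes were 0.28 for ATM-/- against WT under RP105 (adjusted p = 0.755), 0.38 for RP105 against anti-CD40/IL4 in ATM-/- (adjusted p = 0.659), -0.11 for ATM-/- against KU55933 (adjusted p = 0.796) and 0.58 for the interaction (adjusted p = 0.218), and chromosome 7 had -0.49 (adjusted p = 0.659). In WT, chromosome 10 fell under RP105 once they were removed, by -0.65 (SE 0.21, edgeR adjusted p = 0.0474). Chromosome 10 under RP105, at 39.7 ± 15.2 per 1000 in libraries labelled ATM-/- and 24.0 ± 1.68 in those labelled WT, had 0.60 (edgeR adjusted p = 0.0804). It passed without bases shared between libraries (0.67, adjusted p = 0.0333) and had 0.10 without CA starts (adjusted p = 0.943). Without shared bases chromosome 10 also rose under RP105 over anti-CD40/IL4 in cells labelled ATM-/-, by 0.65 (edgeR adjusted p = 0.0266), where all junctions gave 0.53 (adjusted p = 0.0964) and those without CA starts -0.35 (adjusted p = 0.788). Its interaction was 0.89 without shared bases (edgeR adjusted p = 0.0404), 0.79 with all junctions (adjusted p = 0.0859) and 0.31 without CA starts (adjusted p = 0.864).

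Spacing depended on depth. The median distance from an unlabelled junction to the nearest in the same library was 672.2 ± 165 kb in ATM-/- libraries, 296.9 ± 73.8 kb with KU55933 and 1659 ± 581 kb in untreated WT, and 1652 ± 672 and 900.0 ± 629 kb in the RP105 libraries labelled ATM-/- and WT. After matching every library to 247 junctions, the share with a neighbour within 10 kb was 3.88%, 4.13% and 3.88% in ATM-/-, 8.87%, 6.14% and 3.08% with KU55933 and 6.09%, 4.50%, 3.55% and 4.05% in untreated WT. Under RP105 it was 8.502%, 3.77% and 5.69% in libraries labelled ATM-/- and 7.68%, 5.86% and 6.24% in those labelled WT. KU55933 libraries spread over the widest range. No comparison passed. RP105 minus anti-CD40/IL4 in WT, the one with the lowest p, was 2.04 percentage points (exact permutation p = 0.0857, adjusted 0.225), and ATM-/- minus WT was -0.583 under anti-CD40/IL4 (exact permutation p = 0.514, adjusted 0.661) and -0.603 under RP105 (exact permutation p = 0.8, adjusted 0.864). Within shared runs the genotype differences were 0.584 and -0.169, and 0.277 and -0.545.

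Between 24.2% and 42.1% of the unlabelled junctions of a library lay within 10 kb of one from another library. The highest was the RP105 library labelled ATM-/- replicate 3, followed by that labelled WT replicate 3 at 39.3%, the pair that shared most bases.

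Prey strands were close to even in all groups. The plus share was 49.7%, 49.8% and 48.5% in ATM-/- libraries, 48.0%, 47.9% and 46.8% with KU55933 and 48.3%, 51.1%, 50.0% and 51.0% in untreated WT. Under RP105 it was 54.7%, 51.1% and 51.9% in libraries labelled ATM-/- and 48.5%, 48.2% and 48.6% in those labelled WT. KU55933 libraries were below all untreated ones, by -2.55 percentage points (exact permutation p = 0.0571, adjusted 0.220), and those labelled ATM-/- above those labelled WT under RP105, by 4.13 (exact permutation p = 0.1, the smallest possible, adjusted 0.225), with 4.69 and 3.35 in the shared runs. The interaction was 4.91 (exact permutation p = 0.0214, adjusted 0.0964). None passed after adjustment, but the interaction did without untreated WT replicate 1 (5.52, adjusted p = 0.0338). With ATM-/- and WT exchanged among the RP105 labels the difference under RP105 was -4.13 and the interaction -3.36 (exact permutation, adjusted p = 0.245 and 0.283).

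Unlabelled junctions differed from labelled ones of the same library in base content and crowding. Their prey letters were 45.8% ± 1.09 G or C, against 49.0% ± 1.08 for labelled ones (SD, n = 16), lower in 16 of 16 libraries (-3.25 percentage points, two-sided sign-flip permutation p adjusted to 0.000275). They more often had bases aligned to masked repeats, 30.8% ± 7.76 against 23.5% ± 5.30, higher in 16 of 16 libraries (7.31, adjusted permutation p = 0.000275). They less often had a neighbour within 10 kb at matched depth, 5.37% ± 1.81 against 8.75% ± 3.75, lower in 16 of 16 libraries (-3.38, adjusted permutation p = 0.000275). In the 454 libraries alone these differences were -3.21, 5.60 and -2.03, each with a sign-flip permutation p of 0.0156, the smallest that 7 libraries can give, and an adjusted p of 0.141.

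CA starts were also commoner among unlabelled junctions, 7.90% ± 9.03 against 5.86% ± 6.57, higher in 14 of 16 libraries (2.05, adjusted permutation p = 0.0435). The gap was 7.504 percentage points in RP105 libraries labelled ATM-/-, where 24.4% ± 2.36 of unlabelled and 16.9% ± 3.45 of labelled junctions started so (n = 3), and 0.302 over the 454 libraries (adjusted permutation p = 0.292). Without bases shared between libraries the difference was 2.03 (adjusted permutation p = 0.107). The median aligned prey length was 105.5 ± 12.4 bases, against 100.3 ± 11.1 (adjusted permutation p = 0.0730), and the plus share 49.6% ± 1.98, against 50.3% ± 2.04 (adjusted permutation p = 0.57). Neither passed.

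**Figure D5:**
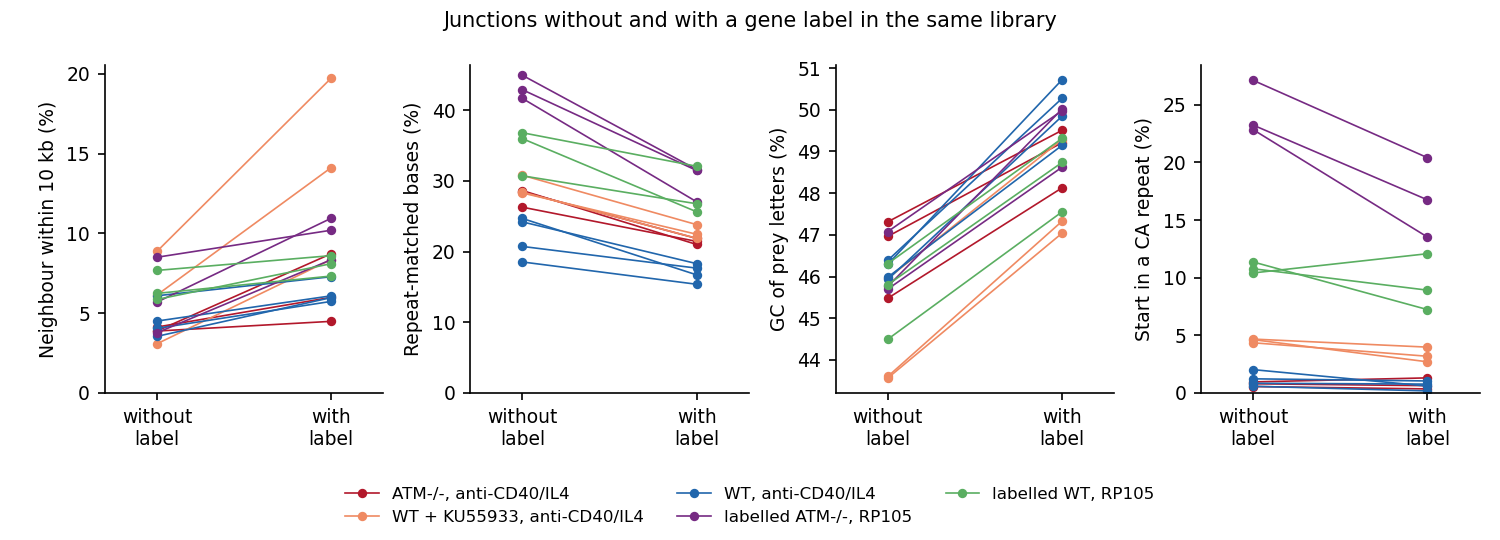
Unlabelled and labelled junctions of each of the 16 libraries, joined by a line and coloured by group: share with a neighbour within 10 kb at matched depth, share with repeat-matched bases, G and C content of the prey letters and share starting in a CA repeat, all in percent. The first 3 measures run the same way in 16 of 16 libraries and the last in 14 of 16.

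No unlabelled window of 5 Mb passed in any comparison. Of 457 windows that held any unlabelled junction, the median held 24 and the middle of the distribution 16 to 35. The fullest ran from 40 to 45 Mb of chromosome 4, with 202 unlabelled and 100 labelled junctions, and holds the clusters near Pax5 and Zcchc7. Per 1000 unlabelled junctions of the library, KU55933 libraries had 25.5 ± 12.8 there, ATM-/- libraries 13.2 ± 4.82 and untreated WT 14.5 ± 4.59. Next were chromosome 17 from 25 Mb with 121 junctions (246 labelled), chromosome 6 from 70 Mb, which holds part of Igk, with 113, and chromosome 1 from 30 Mb, which holds site A, with 105, and from 135 Mb, which holds site B, with 103.

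Of the 294 unlabelled windows with at least 20 junctions, edgeR called 0 in each of the 7 comparisons and DESeq2 called 0. An unadjusted p under 0.05 was reached by 12 in ATM-/- against WT (0.0% of all 546 labelled and unlabelled windows called), 13 in KU55933 against untreated (0.183%), 17 in ATM-/- against KU55933 (0.183%), 15 in ATM-/- against WT under RP105 (0.0%), 23 and 25 in RP105 against anti-CD40/IL4 in WT and ATM-/- (0.0% each) and 19 in the interaction (0.0%). The lowest adjusted p was that of the window with site A, chromosome 1 from 30 to 35 Mb, in RP105 against anti-CD40/IL4 in ATM-/- (log2 fold change 2.01, SE 0.56, edgeR adjusted p = 0.0937). It held 19.2 per 1000 unlabelled junctions in RP105 libraries labelled ATM-/- and 4.98 ± 2.92 in ATM-/- anti-CD40/IL4 libraries. This window passed without ATM-/- anti-CD40/IL4 replicate 3 (2.53, edgeR adjusted p = 0.0359). Without KU55933 replicate 3, ATM-/- was lower than KU55933 from 35 to 40 Mb of chromosome 1 (-2.05, edgeR adjusted p = 0.0276) and from 40 to 45 Mb of chromosome 4 (-1.20, adjusted p = 0.0294).

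Many unlabelled junctions lay close to labelled ones. The median distance to the nearest labelled junction, pooled over libraries, was 115.7 kb, with 46.0% within 100 kb and 9.48% within 10 kb. Inside the span of the 2781 labels that occurred at least 2 times, just 8 unlabelled junctions were found. Of the 12847, 157 (1.22%) fell in RefSeq promoter windows of 300 bases, as did 157 (1.05%) of the labelled ones. Within 100 kb of a junction labelled with 1 of 26 AID off-target genes (21 of which had a label) lay 207 unlabelled junctions, 1.61%. Of these, 69 were near Pax5, 39 near Pim1, a kinase gene, 22 near Il4ra and 17 near Il21r, which encode receptors for IL4 and IL21. Per library the share was 1.42% ± 0.604 in ATM-/-, 2.38% ± 1.07 with KU55933 and 1.31% ± 0.782 in untreated WT, and 0.471% ± 0.419 and 0.901% ± 0.582 in RP105 libraries labelled ATM-/- and WT. The RP105 libraries labelled ATM-/-, at 0.0% to 0.802%, lay below all ATM-/- (0.833% to 2.04%) and KU55933 (1.17% to 3.20%) libraries under anti-CD40/IL4, and the other groups overlapped one another. No test was run on these shares. Near 10 early replicating fragile genes (9 of which had a label) lay 36 (0.280%). Near 15 long or late replicating ones (12 with a label) lay 10 (0.0778%). Inside labelled spans almost no junction lacked a label, so the choice of junctions itself keeps the count near long genes low. It is no measure of breaks in them.

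Of the antigen receptor loci, Igk and Igl held the most unlabelled junctions. The counts are not scaled by length. The stretch between Serbp1 and Rpia that contains Igk held 138 unlabelled and 31 labelled junctions, and that of Igl, the lambda light chain locus, 29 and 0. The Igk stretch ran from 67217835 to 70738027 of chromosome 6, which held 5.74 unlabelled junctions per Mb. That of Igl ran from 18806907 to 19772594 of chromosome 16, which held 6.09 per Mb. The T cell receptor loci, which B cells do not rearrange, held 3 unlabelled junctions in Trb, 10 in Tra/Trd and 4 in Trg.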

How the data were processed

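Per the labels' protocols, genomic DNA was cut with HaeIII, ligated to an adapter and enriched by nested PCR. The authors deposited 1 alignment record per junction on mm9, per the submitters' processing notes; the aligner is not given in the sources used here. Per the file headers, the records give counts of matched and repeat-matched bases, an alignment score, coordinates, the aligned letters and a gene label. The deposited score was not used as a measure, and junctions were counted from the records. A broken record was rejoined in 1 file, and 55 identical rows and 3 mitochondrial rows were left out. The junction is the first prey base. Sequencing runs were told apart by the start of the read names, and MiSeq from 454 libraries by whether the records held a junction column. Shares were compared over libraries by exact two-sided permutation with Benjamini-Hochberg adjustment over 27 tests. Chromosome and window counts were fitted for all 16 libraries with edgeR 4.0.16 (R 4.3.3), with DESeq2 1.42.0 as an alternative, called at an adjusted p under 0.05, and tested on simulated data. Library size was all junctions on the 17 autosomes. Named regions were the chromosomes, the 10 largest clusters, the largest cluster of each group and the 5 fullest windows, and others are said to be picked after their values were seen. Members, gene lists and rules were chosen with earlier results of these data known. Sequence letters come from the aligned target letters; promoter windows are RefSeq's for 32817 entries.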

Additional observations from a re-analysis of the deposited data

Results flagged for a closer look

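Outlying libraries were looked for only in untreated WT under anti-CD40/IL4, the 1 group with 4 libraries, over 26 measures. The groups of 3 libraries were not screened. In 1 of the 26 measures a library lay far from the others, and chance alone marks about 1 in 20. Unlabelled junctions of chromosome 14 came to 8.59 per 1000 junctions on the 17 autosomes in untreated WT replicate 4 under anti-CD40/IL4, which is 5 junctions of 582, whereas replicates 1, 2 and 3 had 24 of 1082, 15 of 746 and 26 of 1242. The genotype difference on chromosome 1 differed between stimuli, with an interaction of 0.80 on the log2 scale (SE 0.19, edgeR adjusted p = 0.00396) and 0.58 (adjusted p = 0.218) without CA repeat starts, and -0.23 (adjusted p = 0.763) with ATM-/- and WT exchanged among the RP105 labels. With 1 library left out at a time it ran from 0.60 to 0.93 and passed in 12 of 13 fits.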

How the results depend on the processing

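Of 739 values recomputed under another setting, 621 kept their direction and side of the threshold (counts: stayed within 1.5 times). None of the shares below passed the threshold, and signs that turned were as follows, in percentage points. The unlabelled share of ATM-/- minus KU55933 became 0.0707 without CA repeat starts, 0.201 without narrow clusters, 0.0186 without antigen receptor loci and 0.567 with all junctions outside chromosome 15 as the base. That base gave 2.59 for ATM-/- minus WT under RP105 and 2.61 for the interaction, which had 0.341 without shared bases. ATM-/- minus WT was 0.83 within shared runs, and RP105 minus anti-CD40/IL4 in ATM-/- was -0.644 without CA starts. The close-neighbour share of ATM-/- minus WT was 0.0291 without clusters, 2.85 without depth matching and 0.207 within runs under anti-CD40/IL4, and 1.67 under RP105 without CA starts. RP105 minus anti-CD40/IL4 in ATM-/- was -1.65 without depth matching. Its interaction was 0.0959 at distinct positions, 2.20 without CA starts, 0.975 at 100 kb and 0.0468 without shared bases. For these and the sequencer subsets the cause was not tested.

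Unlabelled against labelled junctions kept all directions. In 454 libraries alone the close-neighbour share was -2.03, repeat-matched bases 5.60, G and C -3.21 and CA starts 0.302, with permutation p of 0.0156 at best, the smallest that 7 libraries can give, adjusted to 0.141; CA starts were 3.403 in MiSeq libraries alone and 2.03 without shared bases, neither past the threshold.

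Unlabelled chromosomes called for ATM-/- against KU55933 numbered 1, and 0 with TMM factors, unlabelled junctions as library size, DESeq2, only the compared groups, the replicate block, CA starts removed or clusters removed. For ATM-/- against WT under RP105 they numbered 1, 2 with TMM factors, that library size, no clusters or no shared bases, and 0 with DESeq2 or no CA starts. For RP105 against anti-CD40/IL4 they numbered 1 in WT without CA starts, and in ATM-/- 2, with 3 under TMM factors, without clusters or without shared bases (chromosomes 1, 7 and 10 in the last), 1 in DESeq2 and 0 without CA starts. The interaction had 1, with 2 under TMM factors, 0 with DESeq2 or no CA starts, 4 without clusters and 2 without shared bases (chromosomes 1 and 10). Windows of 5 Mb called numbered 0, and 1 for KU55933 with TMM factors and, for RP105 in ATM-/-, 1 with only the compared groups and 2 at 10 Mb.

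Exchanging the genotype labels of the RP105 libraries, an alternative chosen after seeing the data, turned ATM-/- minus WT under RP105 and the interaction to 1.28 and 2.01 for the unlabelled share, -4.13 and -3.36 for the plus share and 0.603 and 1.19 for the close-neighbour share. RP105 minus anti-CD40/IL4 in the plus share became 2.45 in WT and -0.913 in ATM-/-. Chromosome 1 had -0.51 under RP105, still past the threshold, and -0.23 for the interaction. Called chromosomes became 1 in WT and 1 in ATM-/- for RP105 against anti-CD40/IL4 and 0 for the interaction.

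Same-numbered libraries of different groups did not deviate together in their chromosome counts (8 of 30 pairs over 0.1, from -0.481 to 0.380), and they were not treated as pairs. Small libraries held few junctions per chromosome, so this check could not exclude a pairing. With the replicate block the interaction of the unlabelled share was 0.623 and of the close-neighbour share 0.146, and chromosome 1 in ATM-/- against KU55933 had -0.32, short of the threshold.

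With 1 library left out at a time, the unlabelled share ran from -2.08 to 1.06 for ATM-/- minus KU55933, from -1.79 to 1.35 for KU55933 minus untreated and from -1.14 to 0.623 for the interaction. The close-neighbour share ran from -1.86 to 0.506 for ATM-/- minus WT under RP105 and from -1.28 to 1.09 for the interaction. The plus share's interaction ran from 3.85 to 5.64, and passed once, without untreated WT replicate 1 (5.52). Called chromosomes ran from 0 to 1 for ATM-/- against KU55933 and RP105 against anti-CD40/IL4 in WT, and from 1 to 2 for RP105 in ATM-/- and the interaction. Called windows ran from 0 to 2 for ATM-/- against KU55933 and from 0 to 1 for RP105 in ATM-/-. Depth limits all of this: the smallest libraries hold 247 unlabelled junctions, and the median window has 24 over all 16 libraries, so differences in single windows were detectable only where they were large.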
